A study of Homo sapiens with 72 samples.

Results

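The genes described here are 38 genes of the antioxidant and thiol defence controlled by the transcription factor NRF2, chosen by symbol from a fixed list. Each of the 38 matched exactly 1 of the 61541 genes listed in every one of 11 comparison tables of a human study of the RNA-binding protein G3BP1, a core component of stress granules. The study holds 72 libraries, of which 24 lie behind these tables. All RNA was poly-A selected and made into strand-preserving libraries.

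In the second of 2 experiments in U2OS cells, an osteosarcoma line, 6 groups of 2 libraries all carried a knockout of G3BP1 and its paralog G3BP2. One state was the knockout without transfection. The other 2 received, by Lipofectamine, either wild-type G3BP1 or a G3BP1 that lacks its NTF2 domain, the part that lets G3BP1 pair with itself and with partner proteins. RNA of the transfected groups was taken at 24 h, and each of the 3 states was studied without and with 200 uM sodium arsenite for 2 h. In the first experiment, 3 groups of 2 libraries were untreated wild-type U2OS cells, untreated knockout cells and knockout cells 24 h after transfection with G3BP1. RNA immunoprecipitation (RIP-seq) compared 3 immunoprecipitates with 3 inputs from Flp-In T-REx 293 cells, an embryonic kidney line with stable FLAG-G3BP1 induced by 1 ug/mL tetracycline for 24 h. No group was transfected without a G3BP1 gene, so effects of transfection and of G3BP1 cannot be told apart. The labels do not say whether the knockout line is 1 clone or whether the libraries of a group came from separate cultures, so p-values measure only the spread between these libraries.

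NRF2, encoded by NFE2L2, is made continuously and is normally bound by KEAP1, which hands it to the CUL3 ubiquitin ligase for destruction. Arsenite and other thiol-reactive agents modify cysteines of KEAP1, so that NRF2 escapes, enters the nucleus and binds antioxidant response elements as a pair with a small MAF protein (MAFF, MAFG or MAFK). Its targets make glutathione and reduced thioredoxin, supply NADPH, break down heme, reduce quinones and carbonyls, store iron and export conjugates. SQSTM1 (p62) closes a loop: it is both a target and a binder of KEAP1.

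Levels are given as RPM, reads per mega-read of scaled library size, computed from whole reads per library that were recovered from the tables, as described with the processing. The 2 libraries of a group carry no replicate number and are called a, with more reads, and b, and values are given in that order. Gene reads per library ran from 10.8 to 27.8 M (mega-reads) in the second experiment and from 38.6 to 52.5 M in the first. G3BP1 was read at 258 and 263 RPM in the knockout libraries of the second experiment, at 42069 and 39999.8 RPM after wild-type rescue and at 56785 and 54452 RPM after NTF2-deletion rescue. In the first experiment it was read at 277 and 276 RPM in knockout, 417 and 396 RPM in wild-type and 446 and 440.1 RPM in rescued cells. Knockout cells thus still held G3BP1 RNA, and the rescue of the first experiment did not raise it far above the wild type. Of 7 genes fixed as markers of U2OS cells, TWIST1 was at 0 to 0.076 RPM and COL1A2 under 1 RPM in all 18 U2OS libraries. The summed level of these 7 differed between groups, from 1914 RPM in arsenite-treated wild-type rescue to 7168 RPM in wild-type cells. Of 4 immune markers only ITGAM passed 1 RPM, and it moved with the groups, as given below. Endothelial, hepatocyte and erythroid markers each stayed below 1 RPM. In the RIP-seq, of 7 markers fixed for 293 cells, CKB had a base mean of 28480 normalised reads, while STMN2 (0.583) and NEFM (4.87) were near 0, by the authors' deposited table. LIN28B (1164), NEFL (1078), PAX2 (45.8) and LHX1 (36.9) lay between. Of the U2OS markers, VIM (11619), TWIST1 (210), RUNX2 (69.0), SPARC (32.0) and COL1A1 (26.4) were also read there, and CDH11 (0.830) and COL1A2 (0) hardly. In the U2OS libraries the 293 markers summed to 83.5 to 171 RPM. Both lists thus had genes read in both lines.

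Arsenite for 2 h raised a small set of these genes and most of them were not called. HMOX1, MAFF, MAFG, GCLM and FTL rose in all 3 states, and GCLC, KEAP1, NFE2L2, NQO1, SRXN1 and TXNRD1 passed the test in none. In knockout cells 7 of the 35 members with an adjusted p rose, where 8.56% of all tested genes did, and 6 fell, where 10.9% did. In wild-type rescue 8 of 34 rose (all genes, 8.18%) and 5 fell (12.2%). In NTF2-deletion rescue 6 of 34 rose (2.43%) and none fell (6.14%). These calls are the authors' own DESeq2 tests at an adjusted p under 0.05. limma on the recovered reads called, of 37 members, 9 higher (all genes, 15.0%) and 12 lower (17.0%) in knockout, 7 (6.59%) and 4 (8.36%) in wild-type rescue, and 6 (3.99%) and 2 (6.77%) in NTF2-deletion rescue, where 12 had an unadjusted p under 0.05. Over the members tested, the median log2 fold change was -0.070, 0.064 and 0.067 for the 3 states in that order, beside -0.0018, 0.0094 and 0.010 over all genes tested.

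**Figure D1:**
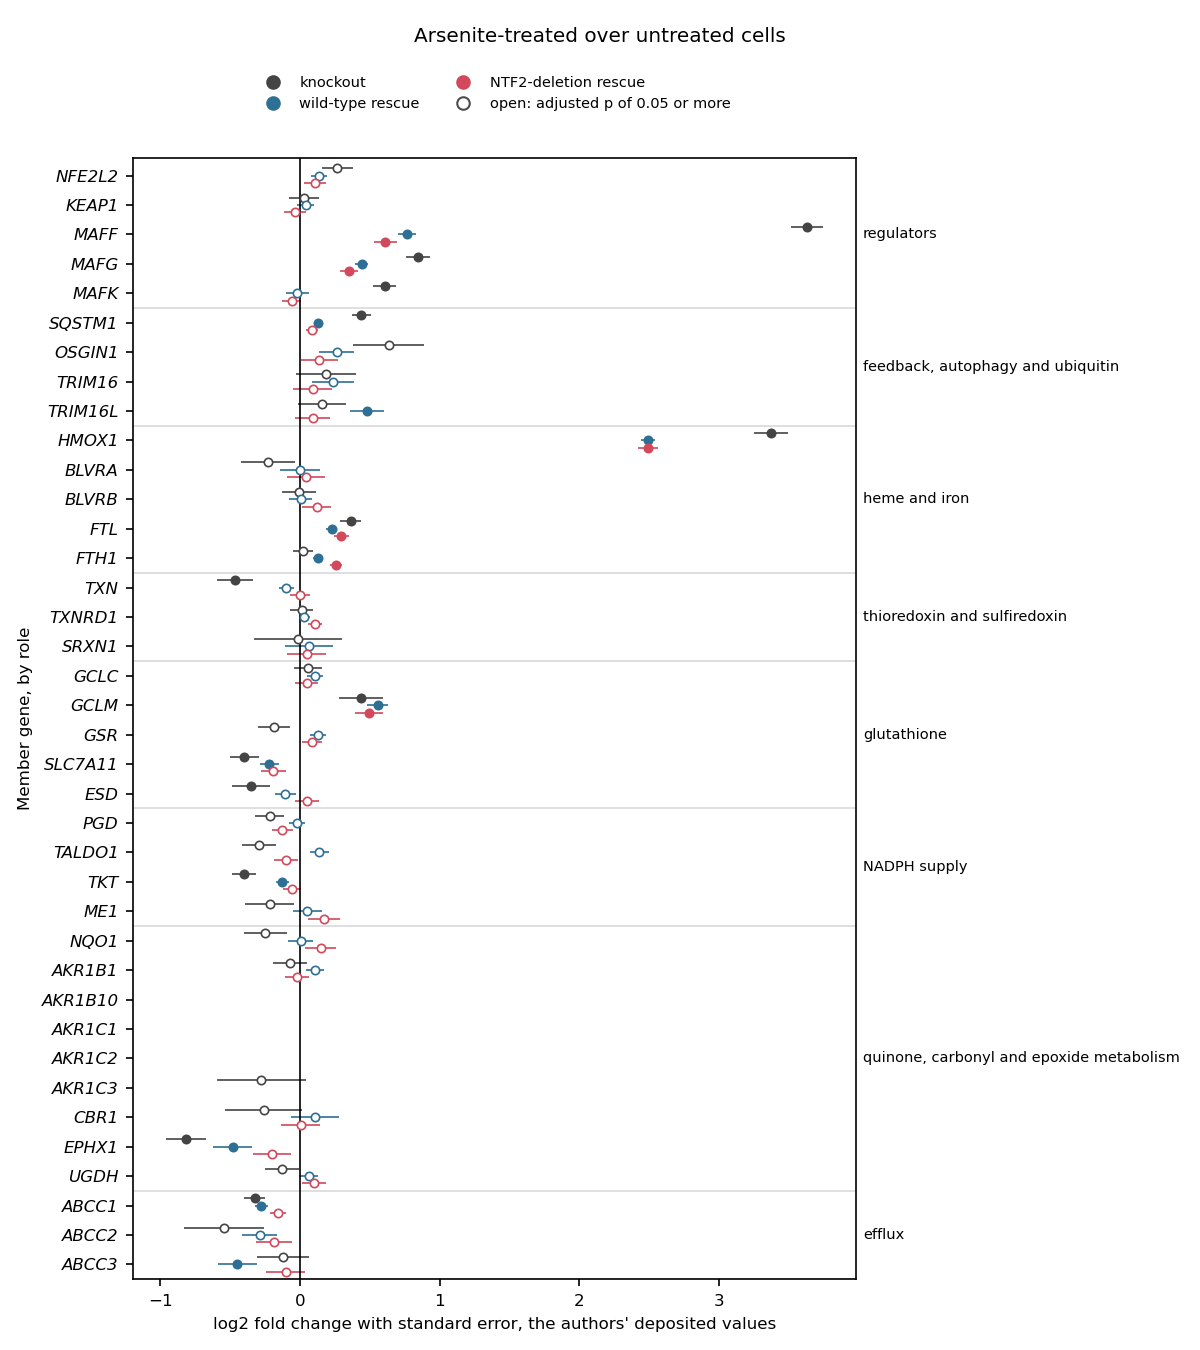
Deposited log2 fold changes of arsenite-treated over untreated cells (horizontal axis) with the authors' standard errors, for each member (vertical axis, grouped by role) in knockout, wild-type rescue and NTF2-deletion rescue. Filled points passed an adjusted p under 0.05, and members without an adjusted p have no point. HMOX1 lies far to the right in all 3 states, MAFF only in knockout cells at 3.63, and most other members lie within 0.5 of 0.

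HMOX1 encodes the heme oxygenase that opens the heme ring. It was at 13.4 and 11.9 RPM in untreated and 145 and 141 RPM in arsenite-treated knockout cells. It went from 69.0 and 66.0 to 401 and 394 RPM in wild-type rescue and from 37.7 and 35.3 to 241 and 232 RPM in NTF2-deletion rescue. The 6 groups do not overlap, and the highest level was that of arsenite-treated wild-type rescue. Treated over untreated, the ratio of mean levels was 11.3 for knockout, 5.88 for wild-type rescue and 6.49 for NTF2-deletion rescue. In the authors' deposited tables the log2 values were 3.37 ± 0.12 (SE, adjusted p = 5.62e-170), 2.49 ± 0.049 (adjusted p listed as 0) and 2.49 ± 0.073 (adjusted p = 2.75e-252), from 2 libraries per group and DESeq2. In bulk RNA, more cells of a kind and more RNA per cell cannot be told apart.

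NRF2 itself and its inhibitor did not pass the test. NFE2L2 was at 62.2 and 60.5 RPM in untreated and 69.8 and 77.3 RPM in arsenite-treated knockout cells, for which the authors list 0.27 ± 0.11 (log2, SE) and an adjusted p of 0.0686 in the authors' deposited table (DESeq2). KEAP1 was at 67.8 and 72.5 RPM before and 74.0 and 67.9 RPM after, and its log2 fold change was 0.030 ± 0.11 with an adjusted p of 0.92 in the same of the authors' deposited tables (DESeq2). Neither passed the test in either rescue. The small MAF genes, partners of NRF2 and of its competitor BACH1, passed in knockout cells, and MAFF and MAFG also in both rescues.

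MAFF was at 14.7 and 12.9 RPM in untreated knockout cells and at 192 and 179 RPM with arsenite, 13.4 times as much. In wild-type rescue it went from 56.6 and 60.9 to 104 and 101 RPM, and in NTF2-deletion rescue from 55.6 and 54.4 to 86.4 and 89.9 RPM. Knockout cells thus had the lowest MAFF level without arsenite and the highest with it. The deposited log2 fold changes were 3.63 ± 0.11, 0.76 ± 0.065 and 0.61 ± 0.084 (SE) in the authors' deposited tables of the 3 states, with adjusted p of 2.66e-219, 2.42e-30 and 4.6e-11 (DESeq2).

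MAFG also responded most in knockout cells, from 87.9 and 88.9 to 166 and 153 RPM in knockout, 154 and 155 to 213 and 215 RPM in wild-type rescue and 148 and 141 to 184 and 190.5 RPM in NTF2-deletion rescue. Its log2 fold changes in the authors' deposited tables were 0.85 ± 0.087, 0.44 ± 0.045 and 0.35 ± 0.063 (SE), all called. MAFK went from 111 and 118 to 181 and 166 RPM in knockout cells, and only there was it called, at 0.61 ± 0.084 in the authors' deposited table. In the rescues it stayed between 138 and 172 RPM with and without arsenite.

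**Figure D2:**
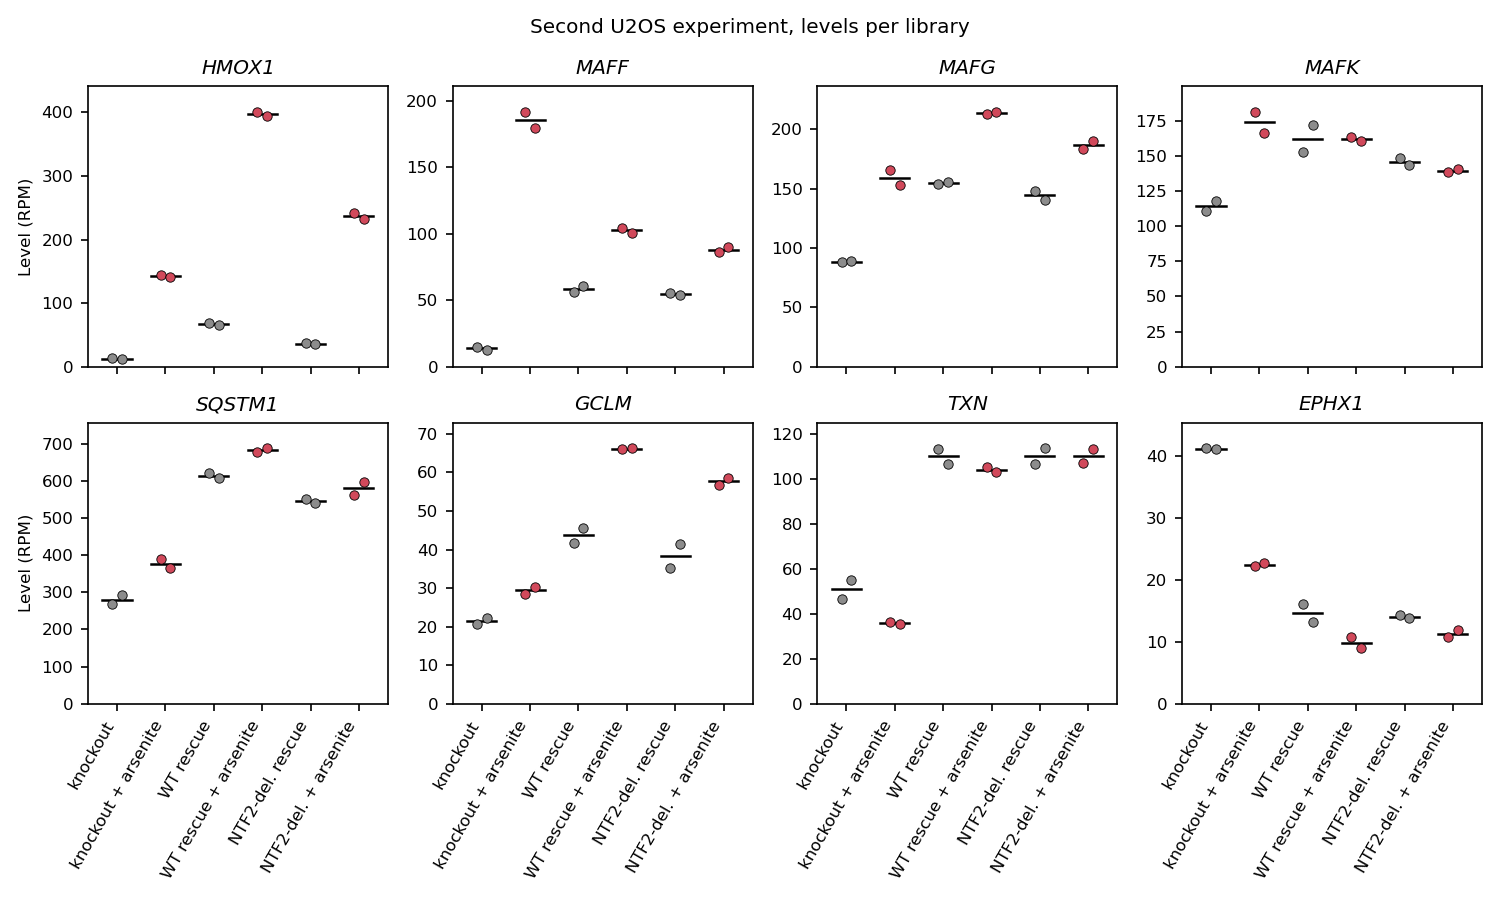
Levels in RPM (vertical axis, linear from 0) of 8 members in the 6 groups of the second experiment (horizontal axis). Points are the 2 libraries of a group, bars their mean, grey untreated and red arsenite-treated. HMOX1 is highest in arsenite-treated wild-type rescue at 401 and 394, MAFF in arsenite-treated knockout cells at 192 and 179.

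Among the other genes that rose, GCLM encodes the regulatory subunit of the enzyme that starts glutathione synthesis. It went from 20.6 and 22.3 to 28.5 and 30.2 RPM in knockout, from 41.8 and 45.5 to 66.1 and 66.2 RPM in wild-type rescue and from 35.2 and 41.5 to 56.7 and 58.7 RPM in NTF2-deletion rescue. Its log2 fold changes in the authors' deposited tables were 0.44 ± 0.16, 0.56 ± 0.076 and 0.50 ± 0.10 (SE), with an adjusted p of 0.0299 in knockout cells (DESeq2) that became 0.0643 when adjusted over every gene with a p-value and 0.0577 when centred on the median gene. The catalytic subunit gene GCLC was at 79.0 and 78.0 and then 84.8 and 77.3 RPM in knockout cells and was not called in any state. The ferritin light chain gene FTL rose in all 3 states, by 0.36, 0.23 and 0.30 on the log2 scale in the authors' deposited tables. In wild-type rescue the FTL call was lost in limma without treated library a or without untreated library b (adjusted p from 0.074 to 0.0968). The heavy chain gene FTH1 was called in both rescues only, at 0.13 and 0.26, and stood at 0.024 in knockout cells in the authors' deposited tables. The FTH1 call in wild-type rescue missed the threshold in limma (adjusted p = 0.0524). Ferritin genes have processed pseudogenes, so part of their reads may be assigned elsewhere. SQSTM1, the autophagy receptor, went from 267 and 292 to 390.4 and 365 RPM in knockout cells. It was called there at 0.44 ± 0.069 and in wild-type rescue at 0.13 ± 0.034 in the authors' deposited tables. Leaving out either library of the untreated or treated wild-type rescue took the wild-type rescue call of SQSTM1 away in limma, with adjusted p from 0.0932 to 0.199. TRIM16L, a paralog of the ubiquitin ligase gene TRIM16 that may share reads with it, was called only in wild-type rescue, from 14.6 and 14.3 to 20.4 and 22.5 RPM.

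The genes that fell encode enzymes, transporters and thioredoxin. EPHX1, the microsomal epoxide hydrolase, was at 41.3 and 41.1 RPM in untreated and 22.2 and 22.7 RPM in treated knockout cells. Its log2 fold changes in the authors' deposited tables were -0.81 ± 0.14 in knockout and -0.48 ± 0.14 in wild-type rescue, both called, and -0.20 ± 0.13 in NTF2-deletion rescue, not called. TXN, the thioredoxin gene, went from 46.7 and 55.2 to 36.3 and 35.6 RPM in knockout cells, a log2 fold change of -0.46 ± 0.13 in the authors' deposited table with an adjusted p of 0.00328 (DESeq2). In knockout cells the cystine importer gene SLC7A11 (-0.40), the transketolase gene TKT (-0.40), the esterase gene ESD (-0.35) and the efflux pump gene ABCC1 (-0.32) also fell on the log2 scale of the authors' deposited table. In wild-type rescue ABCC1 (-0.28), ABCC3 (-0.45), SLC7A11 (-0.22) and TKT (-0.12) fell with EPHX1 in the authors' deposited table. In wild-type rescue, calls of EPHX1, ABCC3 and SLC7A11 were lost in limma without certain single libraries of that state (adjusted p up to 0.0574, 0.153 and 0.256). The ESD call was lost when adjusted over every gene (adjusted p = 0.098), and the TKT call in wild-type rescue was lost in that way (0.0936) and in limma (0.257). NQO1, the quinone reductase often used to read out NRF2, was at 28.7 and 31.0 RPM before and 26.0 and 23.1 RPM after arsenite in knockout cells and was not called.

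To set sequence beside these responses, the promoters of the members in the RefSeq table for GRCh38.p14 were searched for the core of the antioxidant response element, TGACNNNGC, on both strands, from 250 bases before to 50 bases after each start. Of 35116 promoters 4687 (13.3%) held it. Of the 39 promoters of the 29 members in the table, 9 did, from 8 members. MAFK, TRIM16L, SLC7A11, AKR1B10, ABCC3, HMOX1, GSR, FTH1 and ABCC1 were not searched. The motif can overlap the AP-1 site TGANTCA, which 7.71% of all promoters and 2 of the 39 held. The 6 members with a match before the start and the largest deposited arsenite responses in knockout cells are shown, 80 bases each on the gene's strand, with the match in capitals.

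MAFF: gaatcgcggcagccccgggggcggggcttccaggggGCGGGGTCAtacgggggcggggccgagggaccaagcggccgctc
EPHX1: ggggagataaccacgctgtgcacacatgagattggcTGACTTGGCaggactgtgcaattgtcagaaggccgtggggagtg
GCLM: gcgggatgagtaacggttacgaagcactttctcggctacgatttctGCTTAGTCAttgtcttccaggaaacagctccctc
CBR1: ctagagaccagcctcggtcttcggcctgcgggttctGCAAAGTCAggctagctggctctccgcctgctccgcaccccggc
ME1: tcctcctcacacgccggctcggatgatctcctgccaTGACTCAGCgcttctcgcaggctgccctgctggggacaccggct
PGD: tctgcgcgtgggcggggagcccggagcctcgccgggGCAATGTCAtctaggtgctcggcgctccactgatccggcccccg

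These windows lie at chr22:38201836-38201915 for MAFF, chr1:225825240-225825319 for EPHX1, chr1:93909431-93909510 for GCLM, chr21:36069829-36069908 for CBR1, chr6:83431145-83431224 for ME1 and chr1:10398827-10398906 for PGD, with GCLM and ME1 on the minus strand. The first base of the match lies 122, 78, 34, 159, 137 and 201 bases before the start, in the same order. The match of ME1 overlaps the AP-1 letters. Of these 6, MAFF and GCLM rose in knockout cells, EPHX1 fell, and CBR1 (-0.26), ME1 (-0.22) and PGD (-0.22) were not called in the authors' deposited table. A match to these letters is a description and shows no binding.

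Whether the arsenite response differed between the states was tested as the difference of 2 deposited log2 fold changes, adjusted over all genes. With wild-type rescue the log2 fold change was lower than in knockout cells for 5 of 34 members (all genes, 2.68%) and higher for 1 (1.82%). With NTF2-deletion rescue it was lower for 5 of 34 (3.08%) and higher for 3 (4.04%). By limma the wild-type difference was lower for 5 of 37 (3.82%) and higher for 4 (5.17%), and the NTF2-deletion difference lower for 5 (5.22%) and higher for 8 (7.27%). The 5 lower by the deposited values were MAFF, MAFG, MAFK, SQSTM1 and HMOX1 in both. The difference for MAFF was -2.86 ± 0.13 (SE, adjusted p = 6.95e-103, two-sided normal test on DESeq2 values) for wild-type and -3.02 ± 0.14 for NTF2-deletion rescue. For HMOX1 it was -0.88 ± 0.13 (adjusted p = 1.69e-09, DESeq2 values) and -0.88 ± 0.14. Its treated level was higher in both rescues than in knockout cells, as given above. The knockout libraries are shared by both differences, so their likeness is not independent. Fold changes of each table were also shrunk by a prior of its own width, so equal differences need not mean equal responses.

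By the deposited values the positive differences with NTF2-deletion rescue were those of 3 genes that had fallen in knockout cells, TXN at 0.47 ± 0.15, TKT at 0.35 ± 0.11 and EPHX1 at 0.62 ± 0.20 (SE), and with wild-type rescue that of TALDO1, the transaldolase gene, at 0.43 ± 0.14, which was not called in knockout cells (-0.29 in the authors' deposited table). The EPHX1 difference was not called with the shrinkage undone (adjusted p = 0.298) or in limma without any 1 of 4 libraries (0.0515 to 0.108), and the TALDO1 difference was not called with each table centred on its median gene (0.0655). No member was called between the 2 rescues: none of 34 by the test of deposited values, where 0.101% of all genes were higher and 0.227% lower, and none by limma (0.0105% and 0.0263% of all genes), where 2 had an unadjusted p under 0.05. The HMOX1 difference between the rescues was 0.001 ± 0.088 (SE) and that of MAFF 0.15 ± 0.11. These are differences of fold changes shrunk by priors of unlike width, 0.371 for wild-type and 0.278 for NTF2-deletion rescue. The HMOX1 value therefore does not mean equal responses: the ratio of mean levels, given above, was somewhat lower for wild-type rescue.

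The treated groups were also compared directly by limma on the recovered reads, a comparison added after the values were seen. With arsenite in both, wild-type rescue was higher than knockout cells for 25 of 37 members (all genes, 32.9%) and lower for 6 (31.7%). NTF2-deletion rescue was higher for 24 (32.5%) and lower for 7 (32.5%). These counts were not centred on the median gene, which lay above 0 in the deposited tables of rescue against knockout, as given below. HMOX1 was higher by 1.48 ± 0.063 and 0.73 ± 0.063 on the log2 scale (SE, limma), and MAFF was lower, at -0.85 ± 0.069 and -1.07 ± 0.069. Between the rescues with arsenite, HMOX1 was higher with wild-type G3BP1 by 0.75 ± 0.063 (adjusted p = 1.62e-09, limma) and SQSTM1 by 0.24 ± 0.048 (adjusted p = 0.00807, limma). These were the 2 of 37 members called higher, where 0.721% of all genes were, and none was lower.

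Without arsenite, both rescues were compared with untransfected knockout cells. Of 37 members 21 were higher with wild-type G3BP1 (all genes, 23.0%) and 3 were lower (19.1%), in the authors' DESeq2 test. With the NTF2 deletion 21 were higher (22.8%) and 4 lower (18.7%). The median gene with a base mean of at least 100 was itself shifted by 0.18 and 0.17 in these 2 tables. With each table centred on that gene the counts were 17 higher (16.4% of all tested genes) and 6 lower (23.3%) with wild-type G3BP1, and 17 (16.2%) and 5 (22.5%) with the NTF2 deletion. Centring ended the calls of KEAP1, TALDO1, AKR1B1 and TKT in wild-type rescue and of MAFK, FTH1, AKR1B1 and TKT in NTF2-deletion rescue. By limma, without centring, 24 of 37 members were higher (32.5%) and 7 lower (31.6%) with wild-type G3BP1. With the NTF2 deletion 23 were higher (32.2%) and 6 lower (31.2%). The immune marker list, nearly all of it ITGAM, summed to 23.6 and 28.6 RPM in knockout cells and to 11.4 to 13.5 RPM in the untreated rescues, and the 7 U2OS markers to 3381 and 3406 RPM and to 2348 to 2508 RPM. Of these 7, CDH11, COL1A1, RUNX2 and SPARC were below the knockout libraries in both rescues, VIM was above them (1137 and 1193 RPM in knockout, 1466 and 1489 RPM with wild-type G3BP1), and COL1A2 and TWIST1, near 0, overlapped. The part of these markers in the results was not tested.

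**Figure D3:**
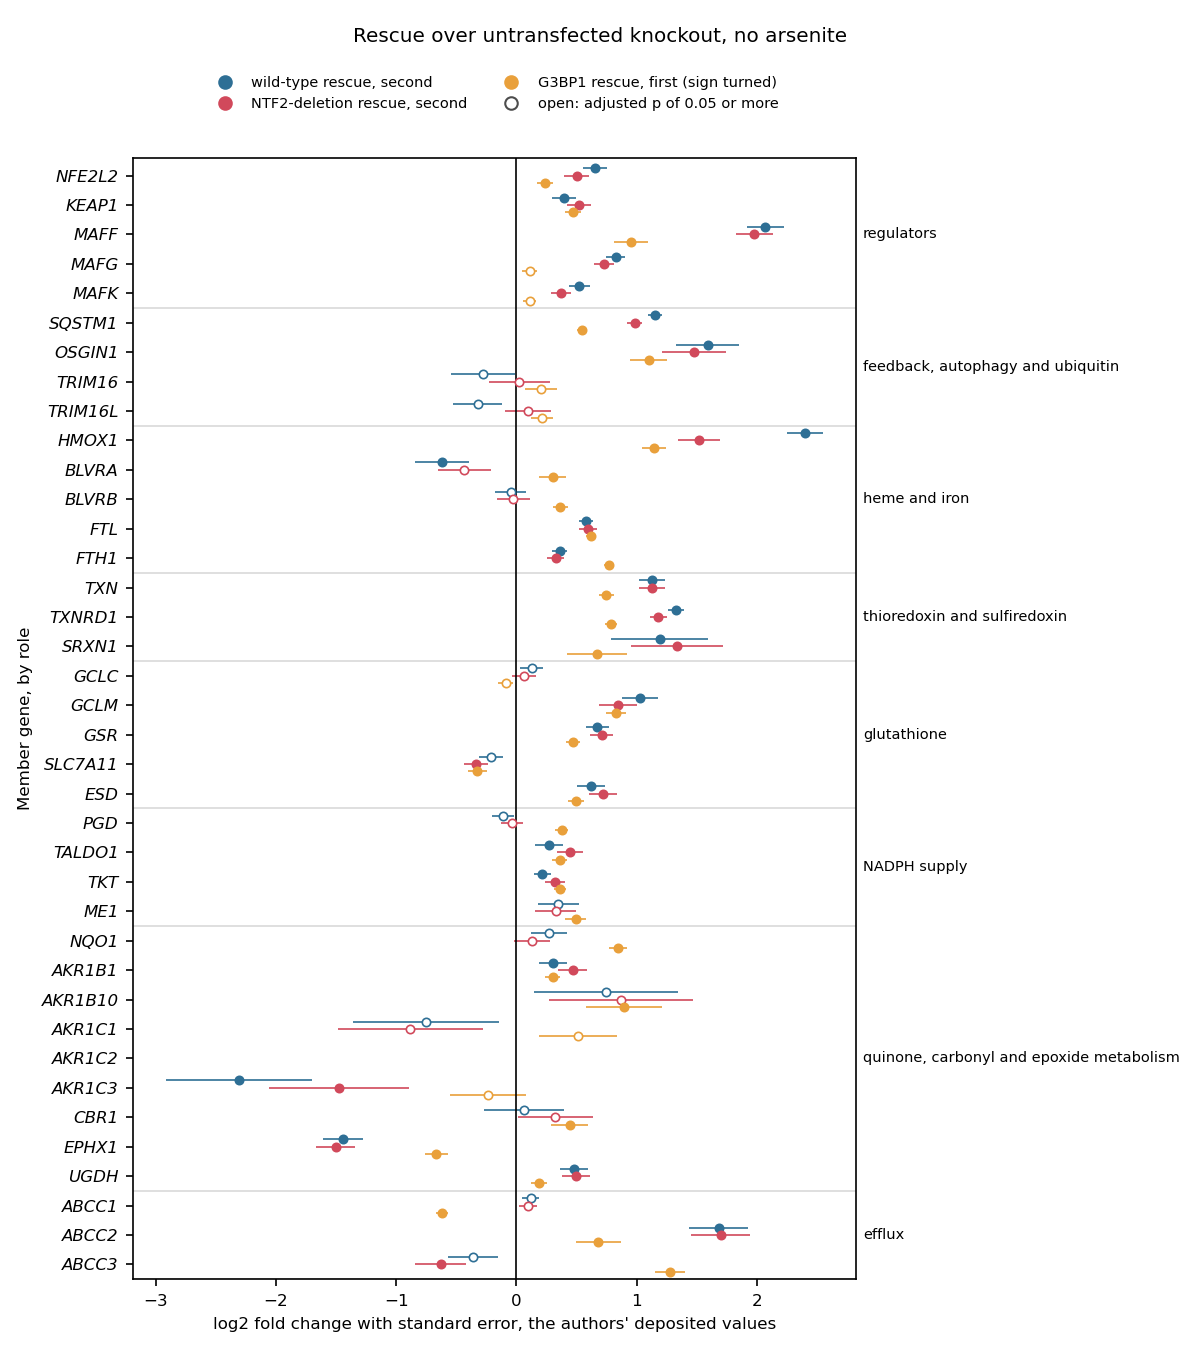
Deposited log2 fold changes of rescued over untransfected knockout cells without arsenite (horizontal axis) with standard errors, by member (vertical axis, grouped by role), for both rescues of the second experiment and for the rescue of the first, whose deposited sign was turned. Filled points passed an adjusted p under 0.05. The thioredoxin genes and HMOX1 lie to the right in all 3, EPHX1 to the left.

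All 3 thioredoxin and sulfiredoxin genes were called higher in both rescues, where 23.0% and 22.8% of all genes were. Of the 4 NADPH supply genes 2 were higher in each rescue. Of the 8 quinone, carbonyl and epoxide genes tested, 2 were higher and 2 lower in each (all genes lower, 19.1% and 18.7%). TXNRD1, which reduces thioredoxin with NADPH, was at 126 and 129 RPM in knockout, 321 and 310.2 RPM in wild-type rescue and 289 and 281 RPM in NTF2-deletion rescue. Its log2 fold changes were 1.33 ± 0.066 (adjusted p = 5.22e-88) and 1.18 ± 0.070 in the authors' deposited tables (DESeq2). TXN was at 46.7 and 55.2 RPM in knockout cells, 114 and 107 RPM in wild-type rescue and 107 and 114 RPM in NTF2-deletion rescue, with 1.13 ± 0.11 and 1.13 ± 0.11 in the authors' deposited tables. The sulfiredoxin gene SRXN1, which repairs overoxidised peroxiredoxins, was low, at 1.55 and 3.42 RPM in knockout cells, 5.07 and 7.42 RPM with wild-type G3BP1 and 6.37 and 7.45 RPM with the NTF2 deletion. In none of the 3 genes did a rescue library overlap the knockout libraries, which was so for most members. Among members, G3BP1 and G3BP2 with enough reads, 34 did not overlap and 2 did with wild-type rescue. With NTF2-deletion rescue 31 did not overlap and 5 did. Such overlap was not counted over all genes, so these counts show nothing particular to the members.

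All 5 regulators were called higher in both rescues before centring (all genes, 23.0% and 22.8%). Centring on the median gene ended the calls of KEAP1 with wild-type G3BP1 and of MAFK with the NTF2 deletion. NFE2L2 was at 95.7 and 94.7 RPM with wild-type G3BP1 and 83.0 and 88.7 RPM with the NTF2 deletion, beside 62.2 and 60.5 RPM in knockout cells. Its log2 fold changes in the authors' deposited tables were 0.65 ± 0.10 (adjusted p = 3.08e-10) and 0.50 ± 0.10 (adjusted p = 5.49e-06, DESeq2). Those of KEAP1 were 0.40 ± 0.10 (adjusted p = 0.000239) and 0.52 ± 0.10 in the authors' deposited tables (DESeq2). MAFF rose by 2.07 and 1.98 and SQSTM1 by 1.15 and 0.98 on the log2 scale of the authors' deposited tables. OSGIN1, an oxidative stress-induced growth inhibitor, was at 5.23 and 4.42 RPM in knockout cells, 14.7 and 15.7 RPM with wild-type G3BP1 and 14.0 and 13.9 RPM with the NTF2 deletion, and was called in both.

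HMOX1 is the member with the largest difference between the 2 rescues in both tests below. It was at 69.0 and 66.0 RPM with wild-type G3BP1 and 37.7 and 35.3 RPM with the NTF2 deletion, 5.34 and 2.89 times the knockout mean. The deposited fold changes differed by 0.88 ± 0.23 (SE), which was not called (adjusted p = 0.377, DESeq2 values) in a test made strict by the knockout libraries that both tables share. limma on the recovered reads, which compares the rescues directly, gave 0.88 ± 0.063 (SE, adjusted p = 1.64e-11). By limma HMOX1 was the 1 member of 37 called higher (all genes, 0.531%), and TRIM16L the 1 called lower (0.253%), at -0.42 ± 0.11 with an adjusted p of 0.0489. By the test of deposited values no member was called in either direction, as against 0.0% and 0.0185% of all genes. G3BP1 RNA itself was lower with wild-type than with NTF2-deletion rescue, at -0.44 ± 0.045 by limma.

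The genes that were lower in the rescues were few. EPHX1 was at 41.3 and 41.1 RPM in knockout cells, 16.1 and 13.3 RPM in wild-type rescue and 14.3 and 13.8 RPM in NTF2-deletion rescue, with log2 fold changes of -1.44 ± 0.17 and -1.50 ± 0.16 in the authors' deposited tables. AKR1C3, an aldo-keto reductase gene, had 25 and 14 reads in the knockout libraries, 1 and 0 with wild-type and 3 and 5 with NTF2-deletion rescue, so its calls rest on few reads. The AKR1C genes are near-identical, and their reads may be split among them. BLVRA, a biliverdin reductase gene, was lower in wild-type rescue, and SLC7A11 and ABCC3 in NTF2-deletion rescue. Of the efflux genes, ABCC2 rose, from 5.82 and 5.01 RPM in knockout cells to 18.5 and 17.7 RPM with wild-type G3BP1 and 18.6 and 17.9 RPM with the NTF2 deletion.

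Arsenite-treated rescue against untreated knockout cells, the contrast of 2 further deposited tables, combines both changes. Of 37 members 23 were higher with wild-type rescue (all genes, 25.1%) and 5 lower (19.8%), and after centring on the median gene, which lay at 0.22, 18 (17.4%) and 8 (25.5%). With NTF2-deletion rescue 22 were higher (23.3%) and 5 lower (19.6%), and after centring, with the median gene at 0.19, 17 (16.9%) and 8 (24.1%). HMOX1 had 31.4 and 18.8 times the level of untreated knockout cells, and GCLM 3.08 and 2.69 times. By limma, without centring, 23 were higher (33.6%) and 7 lower (32.6%) with wild-type rescue, and 24 (33.2%) and 7 (32.3%) with NTF2-deletion rescue.

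In the first experiment, knockout cells were compared with the wild-type line and with their own G3BP1 rescue. Against wild type, 8 of 37 members were higher in knockout cells (all genes, 18.4%) and 13 lower (19.4%). Against rescue, 3 were higher (16.1%) and 27 lower (21.5%). Wild-type cells had 4 members higher than rescue (15.2%) and 23 lower (20.4%). By limma the counts were 8 (28.6%) and 17 (29.2%), 3 (24.8%) and 29 (26.9%), and 5 (23.8%) and 23 (25.5%). The 3 comparisons share groups, so their counts are not independent. In both comparisons with the rescue most members were thus called higher in the cells labelled as rescue. The G3BP1 level of that group, given above, was close to that of wild-type cells. Several marker genes, given below, lay between those of knockout and wild-type cells. SPARC and members such as SQSTM1, HMOX1, FTH1, TXN and GSR lay outside the levels of both. The makeup of the group beyond its label was not tested.

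**Figure D4:**
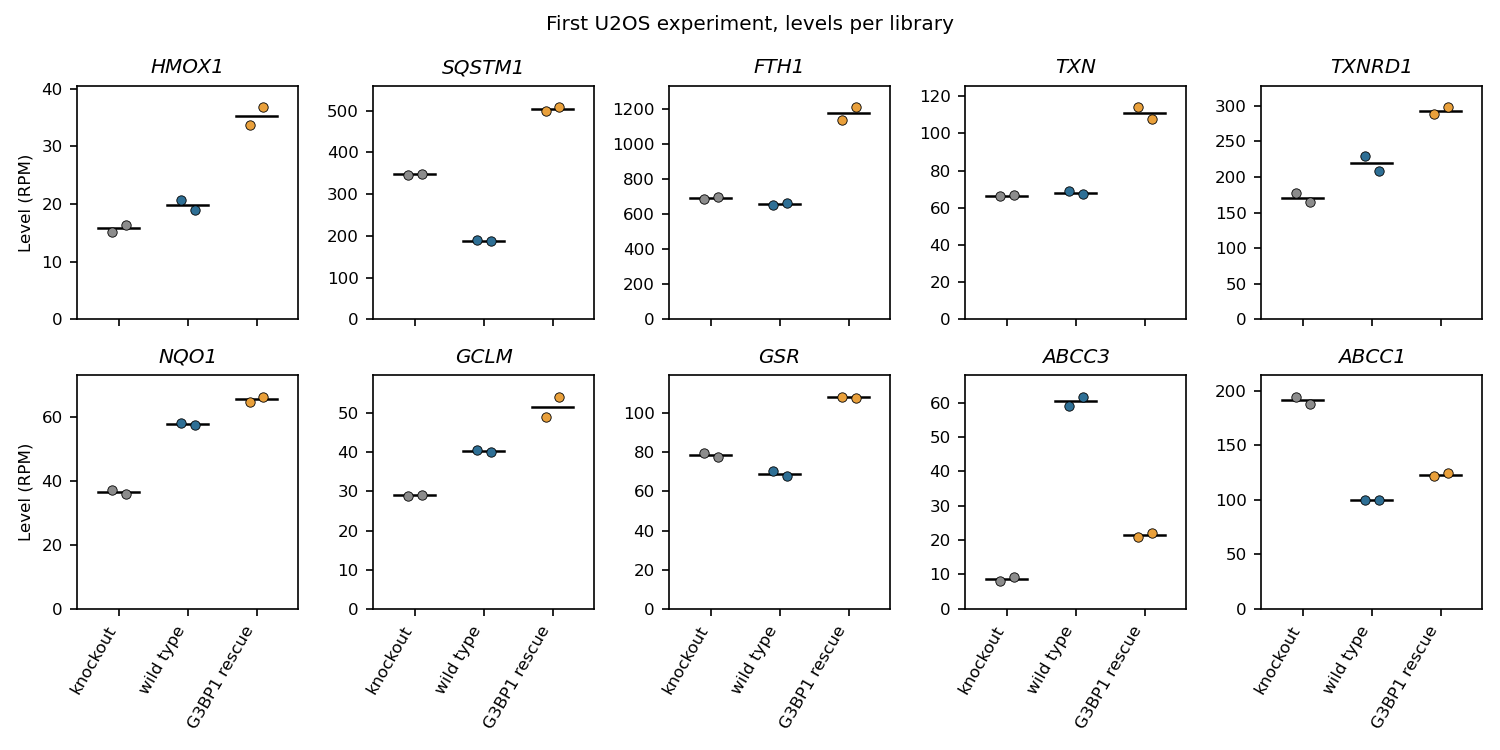
Levels in RPM (vertical axis, linear from 0) of 10 members in the 3 groups of the first experiment (horizontal axis). Points are the 2 libraries of a group and bars their mean. SQSTM1 is lowest in wild-type cells at 191 and 187 and highest in the rescue, and ABCC3 is lowest in knockout and highest in wild-type cells.

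SQSTM1 was at 191 and 187 RPM in wild-type cells, 346 and 348 RPM in knockout cells and 499 and 508 RPM in the rescue. The log2 fold change of knockout over wild type was 0.87 ± 0.048 and that of wild type over rescue -1.43 ± 0.043 (SE) in the authors' deposited tables. HMOX1 had its highest level in the rescue, going from 15.2 and 16.3 RPM in knockout and 20.7 and 18.9 RPM in wild-type cells to 33.8 and 36.8 RPM in the rescue. Its deposited values were -0.33 ± 0.12 (adjusted p = 0.0182) for knockout over wild type and -1.15 ± 0.10 for knockout over rescue in the authors' deposited tables (DESeq2). NFE2L2 was at 72.8 and 68.2 RPM in knockout, 71.3 and 71.2 RPM in wild-type and 79.3 and 85.7 RPM in rescued cells, and was called lower in knockout than in rescue (-0.23 ± 0.067) but not than in wild type (-0.018 ± 0.070) in the authors' deposited tables. KEAP1 was lower in knockout cells than in either, by 0.40 and 0.47 on the log2 scale of the authors' deposited tables.

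Several target genes lay low in knockout cells. NQO1 was at 37.1 and 36.1 RPM in knockout, 58.2 and 57.6 RPM in wild-type and 64.8 and 66.4 RPM in rescued cells. PGD, an enzyme of the NADPH-making pentose phosphate pathway, was at 149 and 141 RPM in knockout, 221 and 209.6 RPM in wild-type and 192 and 182 RPM in rescued cells. FTH1 and TXN were not called between knockout and wild type and were highest in the rescue. FTH1 was at 689.9 and 699.7 RPM in knockout, 656 and 663 RPM in wild-type and 1141 and 1212 RPM in rescued cells, with a log2 fold change of knockout over rescue of -0.77 ± 0.041 (SE) in the authors' deposited table. TXN was at 66.1 and 66.7 RPM in knockout, 69.2 and 67.2 RPM in wild-type and 114 and 108 RPM in rescued cells. GSR, the glutathione reductase gene, was at 79.7 and 77.6 RPM, then 70.6 and 67.7 RPM, then 109 and 108 RPM in the same order of groups. For TXN, GSR and FTH1 both rescue libraries lay above all 4 others. Groups that do not overlap, in either direction, were common among members, G3BP1 and G3BP2 with enough reads. Knockout and rescue did not overlap for 37 of them and did for 1, and wild type and rescue for 31 and 8. This was not counted over all genes, so it shows nothing particular to the members.

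The efflux genes moved apart. ABCC3 was at 8.08 and 9.13 RPM in knockout, 58.9 and 61.8 RPM in wild-type and 20.8 and 22.0 RPM in rescued cells, a log2 fold change of -2.78 ± 0.10 for knockout over wild type in the authors' deposited table (adjusted p = 4.88e-165, DESeq2). ABCC1 had the opposite order between the lines, at 195 and 188 RPM in knockout, 100.2 and 100.1 RPM in wild-type and 122 and 125 RPM in rescued cells. In this experiment ITGAM was at 31.1 and 33.2 RPM in knockout, 0.467 and 0.454 RPM in wild-type and 9.8 and 10.0 RPM in rescued cells, and COL1A1 at 524 and 502 RPM, then 3518 and 3292 RPM, then 1671 and 1526 RPM in the same order. Rescued cells lay between the other groups in these markers and in CDH11, RUNX2 and VIM, but not in SPARC, which was lowest in the rescue (1506 and 1398 RPM in knockout, 1614 and 1588 RPM in wild-type and 1034 and 1044 RPM in rescued cells). COL1A2 and TWIST1 stayed below 1 RPM. The immune marker PTPRC, below 1 RPM in all 6 libraries, had the opposite order to ITGAM, at 0.0193 and 0.051 RPM in knockout, 0.911 and 0.93 RPM in wild-type and 0.474 and 0.779 RPM in rescued cells, and CD3E was at 0. The part of these markers in the results of the first experiment was not tested.

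The rescue calls of both experiments were tallied for the members only, so no share of all genes stands beside these counts. Both comparisons of the second experiment share their knockout libraries. The calls tallied were not centred on the median gene. In the second experiment, centring ended the calls of KEAP1, TALDO1, AKR1B1 and TKT in wild-type rescue. It ended those of MAFK, FTH1, AKR1B1 and TKT in NTF2-deletion rescue. The tally was not repeated with centring. Of the 37 members tested in the rescue comparisons of both experiments, 20 were called in the same direction in all 3 and 4 in none. The 20 include MAFF, higher in rescue, and EPHX1, lower in rescue. They also include KEAP1, TALDO1, AKR1B1, TKT and FTH1, whose place among the 20 thus depends on leaving the values uncentred. Of the members in neither count, 7 were called in the first experiment only (BLVRB, PGD, ME1, NQO1, AKR1B10, CBR1 and ABCC1) and 3 in both rescues of the second only (MAFG, MAFK and AKR1C3). SLC7A11 had the same direction in the first experiment and in NTF2-deletion rescue alone, and BLVRA and ABCC3 were called in opposite directions. MAFG was not called between knockout and rescue in the first experiment (-0.11 ± 0.059, knockout over rescue), while it was higher in both rescues of the second in the authors' deposited tables. NQO1 was called in the first (-0.84 ± 0.072) and in neither rescue of the second (0.27 ± 0.15 and 0.13 ± 0.15, rescue over knockout) in the authors' deposited tables. ABCC3 was lower in knockout than in rescue in the first, and in NTF2-deletion rescue of the second it was lower than in knockout cells. BLVRA was likewise lower in knockout than in rescue in the first (-0.30) and lower in wild-type rescue than in knockout cells in the second (-0.62), by the authors' deposited tables. The difference between the experiments was not tested, and their groups and G3BP1 levels differ.

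In the RIP-seq of 293 cells, RNA of most members was more abundant in the G3BP1 immunoprecipitate than in the input. Of 36 members tested 21 were higher (all genes, 24.7%) and 7 lower (31.4%) in the authors' DESeq2 test of 3 against 3 libraries. The median gene with a base mean of at least 100 lay at 0.12, and centred on it 19 were higher (21.7%) and 7 lower (32.8%), with HMOX1 and AKR1C2 no longer called. An immunoprecipitate over input is a relative measure, and no control immunoprecipitation is among these tables. Levels here are mean normalised reads per library of each group, worked out from the base mean and the fold change with its shrinkage undone.

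**Figure D5:**
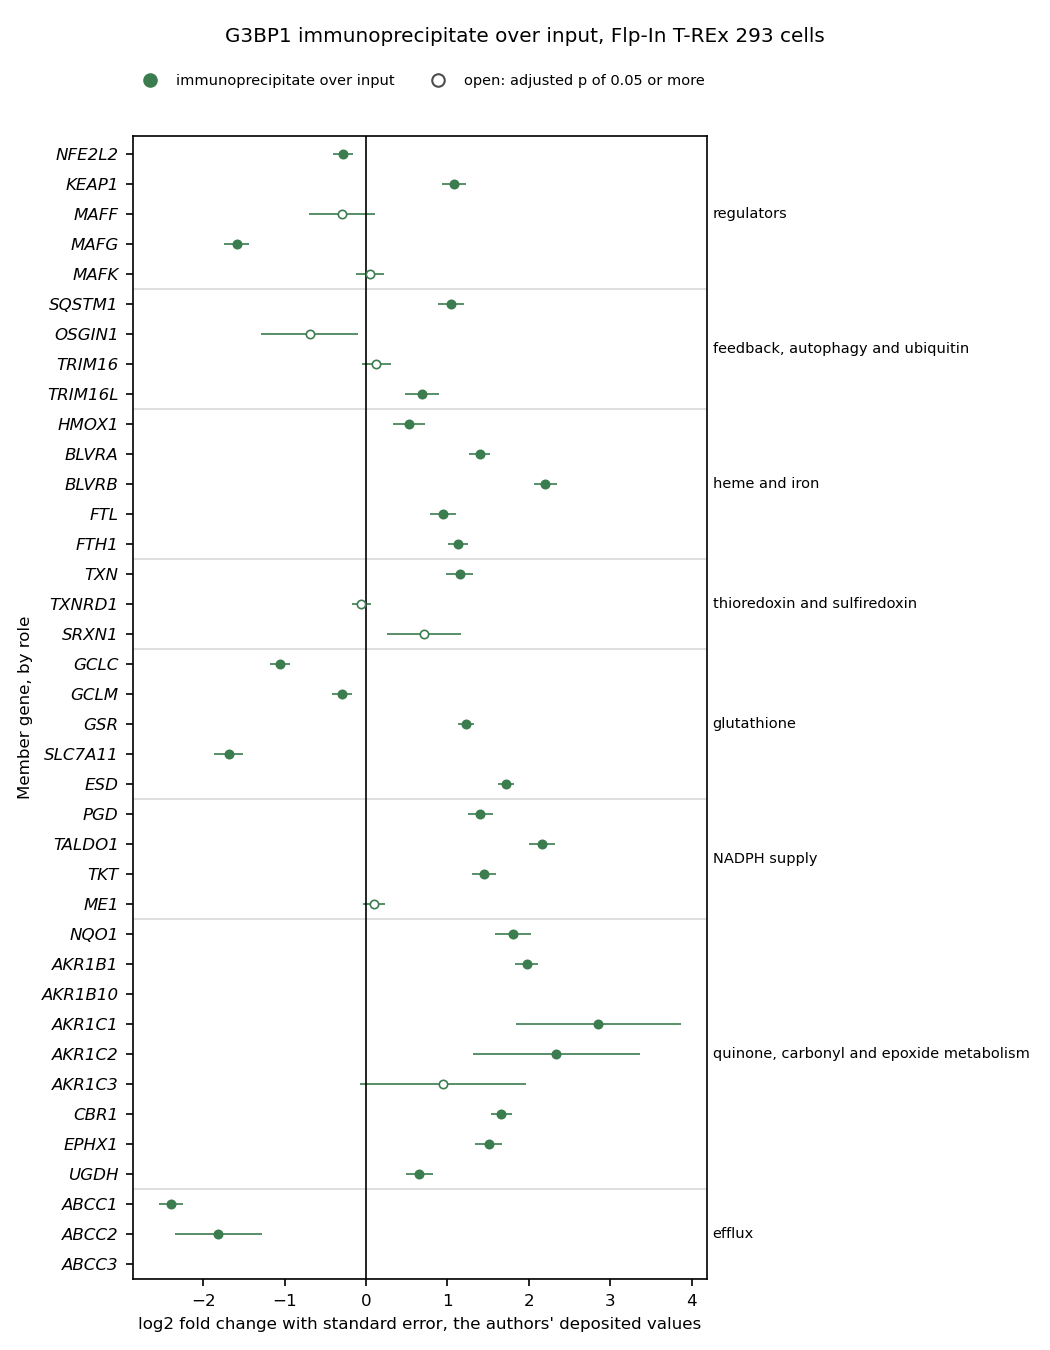
Deposited log2 fold changes of G3BP1 immunoprecipitate over input (horizontal axis) with standard errors, by member (vertical axis, grouped by role), from 3 libraries per group. Filled points passed an adjusted p under 0.05. All 5 heme and iron genes lie to the right of 0, and both efflux genes tested lie to the left.

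The heme and iron genes were all 5 higher (all genes, 24.7%), HMOX1 only before centring. Of the 5 glutathione genes 2 were higher and 3 lower (all genes lower, 31.4%), and of the 5 regulators 1 was higher and 2 lower. Among the heme and iron genes the biliverdin reductase gene BLVRB led, with 826 normalised reads in the immunoprecipitate and 178 in the input. Its log2 fold change was 2.20 ± 0.14 (SE) in the authors' deposited table (adjusted p = 5.29e-51, DESeq2). TALDO1 had 4998 and 1108 normalised reads, and AKR1B1, the aldose reductase gene, 6191 and 1567. Their log2 fold changes were 2.16 ± 0.16 and 1.97 ± 0.14 in the authors' deposited table. NQO1 (1.80), ESD (1.72) and CBR1 (1.66), a carbonyl reductase gene, followed on the log2 scale of the authors' deposited table. HMOX1 had 182 and 125 normalised reads and a log2 fold change of 0.53 ± 0.19 (adjusted p = 0.0128, DESeq2) in the authors' deposited table. KEAP1 was higher in the immunoprecipitate (1.08 ± 0.15) and NFE2L2 lower (-0.28 ± 0.12, adjusted p = 0.0378, DESeq2) in the authors' deposited table. The NFE2L2 call was lost when adjusted over every gene with a p-value (adjusted p = 0.0509).

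Besides NFE2L2, the lower members were transporters, glutathione synthesis genes and a small MAF. ABCC1 had 245 normalised reads in the immunoprecipitate and 1300.1 in the input, or -2.39 ± 0.14 on the log2 scale (SE, adjusted p = 5.19e-61, DESeq2), in the authors' deposited table. SLC7A11 had 95.1 and 308, with -1.68 ± 0.18 in the authors' deposited table. ABCC2 (-1.81), MAFG (-1.59), GCLC (-1.06) and GCLM (-0.29) were also lower there, by the authors' deposited table. The GCLM call also ended when adjusted over every gene (adjusted p = 0.0503), and ABCC2 rests on 10, 5 and 5 reads in the immunoprecipitates and 36, 24 and 18 in the inputs. MAFF was not called (-0.29 ± 0.41) in the authors' deposited table. The median gene length in RefSeq was 19.9 kb for the 21 higher members and 47.8 kb for the 7 lower ones. Beside these, it was 17.1 kb over 5237 of the 5639 genes called higher and 54.3 kb over 5442 of the 7184 called lower. The remaining called genes were not in these medians. The AKR1C1 and AKR1C2 calls rest on few reads: AKR1C1 had 7, 6 and 2 reads in the immunoprecipitates and 0 in each input, AKR1C2 had 4, 3 and 3 against 0.

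Of the wider pathway, 30 further targets and thiol enzymes and 9 further regulators were counted in the same tables. With arsenite, 2 of the 25 further targets tested rose (all genes, 8.56%) and 5 fell (10.9%) in knockout cells. The glutathione transferase gene MGST1 (-1.02 ± 0.18) and the glutaredoxin gene GLRX (-0.64 ± 0.22) fell, and SLC3A2 (0.59 ± 0.077), the partner chain of SLC7A11, rose in the authors' deposited table. Of the 8 regulators tested there, BACH1, the repressor that holds HMOX1 down, rose (0.63 ± 0.088) and NFE2L1 fell (-0.76 ± 0.058) in the authors' deposited table. In wild-type rescue 1 of 26 further targets rose (8.18%) and 3 fell (12.2%), and in NTF2-deletion rescue none of 25 rose (2.43%) and 1 fell (6.14%). NFE2L1, the NRF1 gene, was called lower with arsenite in both rescues too, at -0.53 and -0.38 in the authors' deposited tables.

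Without arsenite, wild-type rescue had 10 of 26 further targets above knockout cells (all genes, 23.0%) and 9 below (19.1%), and the NTF2-deletion rescue had 11 above (22.8%) and 8 below (18.7%). The isocitrate dehydrogenase gene IDH1 was lower in both (-2.10 ± 0.14 and -2.00 ± 0.14) and GLRX higher (1.69 ± 0.16 and 1.71 ± 0.15) in the authors' deposited tables. In the first experiment 16 of 27 were lower (21.5%) and 1 higher (16.1%) in knockout cells than in rescue. In the RIP-seq 25 of 27 further targets were higher (all genes, 24.7%) and none lower (31.4%), led by PIR (2.54 ± 0.19), GSTP1 (2.28 ± 0.16) and GPX1 (2.27 ± 0.14) in the authors' deposited table. Of the 9 further regulators 5 were higher and 4 lower there (the same shares of all genes), with BACH1 at -1.28 ± 0.14 in the authors' deposited table.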

How the data were processed

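Poly-A RNA-seq of U2OS cells and RIP-seq of Flp-In T-REx 293 cells were analysed from the authors' 11 comparison tables. The submitters' processing notes name STAR (2.7.0f and 1.5.3) and DESeq2 (2.11.40.6). Genome build, annotation and counting tool are not given in the sources used here. Per the file headers, each table holds the base mean, a signal in normalised reads deposited by the authors. Fold changes deposited by the authors are log2 values of the first group over the second, shrunk toward 0 by a prior that differs between tables (width 0.278 to 2.06). The deposited Wald statistic is a score, and the p-value and adjusted p-value are the authors' own. Another 4 lines that count unassigned reads were removed.

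A base mean is printed to 15 digits and is an average of whole reads divided by size factors. Genes with a single read gave each library's size factor, and lattice reduction then gave the reads of every library for 38909 of 38909 genes with reads in the second experiment and 38466 of 38466 in the first. As a check, fold changes with the shrinkage undone differed from the ratios of these reads by a constant per table, with a median absolute deviation of at most 0.00159. Recovered reads carry no replicate numbers.

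The main call was the authors' adjusted p under 0.05. To compare 2 tables, the difference of their fold changes was set against the combined standard error (two-sided normal test), with Benjamini-Hochberg adjustment for all genes whose base mean was at least 10 in both. limma (3.58.1) with a trend on log2(RPM + 0.5), for genes with at least 10 reads in 2 libraries, was added after the data were seen, as were the direct contrasts of treated groups. The number of libraries, 2 per group (3 in RIP-seq), limits the precision. All 38 members may be named. Values were given for HMOX1, NFE2L2, KEAP1 and some of the largest called changes at base means of at least 100, and other members where needed. Not every large call has its values given, among them the first-experiment calls of MAFF and EPHX1. For the wider pathway up to 3 genes per list and comparison were named. Members, lists and tests were chosen with earlier results of these data known. Scripts were tested on simulated data. The 2 libraries of each group differed by more than read sampling alone (squared standardised differences averaging 1.81 to 6.00 by group, where sampling gives about 1).

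The alternatives were another adjustment, filters on low values, centring on the median gene, a minimum change of 0.5, undone shrinkage, limma and leaving out each library.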

Additional observations from a re-analysis of the deposited data

Results flagged for a closer look

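The arsenite response of 6 members differed between wild-type rescue and knockout cells by a test of the difference itself, rescue minus knockout in deposited log2 units: MAFF (-2.86), HMOX1 (-0.88), MAFK (-0.63), MAFG (-0.41), SQSTM1 (-0.31) and TALDO1 (0.43). Between NTF2-deletion rescue and knockout cells it differed for 8: MAFF (-3.02), HMOX1 (-0.88), MAFK (-0.67), MAFG (-0.50), SQSTM1 (-0.36), TXN (0.47), TKT (0.35) and EPHX1 (0.62). Both sets rest on the same 4 knockout libraries. The deposited fold changes of each table were shrunk by a prior of its own. With the shrinkage undone, all of these kept their direction, and EPHX1 was the 1 no longer called.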

How the results depend on the processing

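No paired analysis was possible because the deposited comparison tables carry no replicate numbers. Requiring a log2 change of at least 0.5 left fewer members called: with arsenite 4 higher and 1 lower in knockout cells, 3 and 0 in wild-type rescue and 2 higher in NTF2-deletion rescue. In the first experiment it left 5 higher and 5 lower in knockout against wild type, 14 lower in knockout against rescue, and 1 higher and 10 lower in wild type against rescue. For differences in arsenite response of at least 0.5, 1 member was higher and 3 lower for NTF2-deletion rescue minus knockout, and 0 and 3 for wild-type rescue minus knockout. No share of all genes was counted at this cut. The cut acts on shrunk fold changes, with prior widths of 0.637, 0.371 and 0.278 for arsenite in knockout, wild-type rescue and NTF2-deletion rescue. Counts at this cut therefore cannot be compared between states. Centring on the median gene gave 6 lower in untreated and 8 lower in arsenite-treated wild-type rescue against untreated knockout, 8 lower in arsenite-treated NTF2-deletion rescue, and 0 higher for the wild-type difference in arsenite response. limma on the recovered reads gave 12 lower for arsenite in knockout cells, 2 lower in NTF2-deletion rescue, 7 lower in untreated wild-type rescue against knockout, 8 and 4 higher for the NTF2-deletion and wild-type differences, and 1 higher and 1 lower between the untreated rescues. The cause of these shifts was not tested.

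With each library left out in turn, limma called 8 to 9 members higher and 8 to 13 lower for arsenite in knockout cells, 5 to 8 and 1 to 4 in wild-type rescue, and 6 to 7 and 0 to 2 in NTF2-deletion rescue. Against untreated knockout, it called 21 to 24 higher and 4 to 7 lower in wild-type rescue, 22 to 23 and 4 to 7 in NTF2-deletion rescue, and with arsenite 22 to 25 and 6 to 7, and 22 to 25 and 5 to 7. In the first experiment the ranges were 8 to 9 and 15 to 17 (knockout against wild type), 3 and 26 to 29 (knockout against rescue), and 4 to 6 and 21 to 23 (wild type against rescue). Differences in arsenite response gave 3 to 8 higher and 5 lower for wild-type rescue, 4 to 8 and 5 to 6 for NTF2-deletion rescue and 0 and 0 between rescues. The untreated rescues differed in 1 to 2 higher and 0 to 1 lower. Only the members were kept from these refits, so no share of all genes stands beside the ranges. They show how the member counts depend on single libraries and no more. No called value changed direction under these alternatives. Precision is limited by 2 libraries per group and, for AKR1B10, AKR1C1, AKR1C2, AKR1C3 and SRXN1, by few reads.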
